A study of Mus musculus with 4 samples.

Results

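A set of 10 Wnt pathway genes was followed through 4 arrays of differentiating 3T3-L1 cells: the ligand genes Wnt10a, Wnt10b, Wnt6 and Wnt5a, the secreted antagonist genes Sfrp1, Sfrp2 and Sfrp4, and the receptor and signalling genes Fzd1, Axin2 and Tcf7l2. They were chosen by name, as every probe set whose only annotated gene was on this list, which gave 23 of 45101 probe sets and all 10 genes among 18194 named on the array. A probe set is a group of short oligonucleotides on the array that reads the 3' part of a transcript. Its value is the deposited MAS5 signal, a linear intensity that the authors had already scaled array by array. Axin2, Fzd1 and Tcf7l2 are neither ligands nor secreted antagonists and are described as the receiving side of the pathway.

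3T3-L1 is an established mouse fibroblast line that can be made to become fat cells with insulin, dexamethasone and isobutylmethylxanthine. All 4 cultures were grown in 25 mM glucose with 10% serum, were given this induction and were harvested after 24 h of it. Control cells carried siRNA siGL3, a further culture carried siRNA against aof2, the gene now called Kdm1a, which encodes the histone demethylase LSD1, and another carried siRNA against rfk, the riboflavin kinase gene, each introduced 24 h before induction. The remaining culture had tranylcypromine, a drug that inhibits monoamine oxidases and LSD1, in its induction medium, at a dose that the labels do not give and with no mention of an siRNA. Each condition was 1 culture on 1 array, so no test between conditions is possible, every value below is a single measurement, and this number of arrays limits the precision. Each treated culture is set against the control siRNA culture below.

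Wnt proteins are secreted, lipid-modified ligands that bind Frizzled receptors. In the canonical branch this stabilises beta-catenin, which joins TCF/LEF factors on DNA and switches on targets such as Axin2, whose product feeds back on the pathway. Secreted Frizzled-related proteins, encoded by the Sfrp genes, resemble the receptor's ligand-binding domain and can bind Wnt proteins outside the cell. In preadipocytes Wnt10b, Wnt10a and Wnt6 are known as inhibitors of fat cell formation, and Wnt5a is best known for signalling without beta-catenin through receptors such as Ror2.

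The promoters of Wnt6 and Sfrp2 are shown because these are a ligand and an antagonist with signals above the array median in all 4 cultures and above control in each treated one. The lines give the 250 bases before the transcription start, 5' to 3' along the gene, from RefSeq on GRCm38.p6, with CG dinucleotides in capitals.
Wnt6, chr1:74771642-74771891, plus strand: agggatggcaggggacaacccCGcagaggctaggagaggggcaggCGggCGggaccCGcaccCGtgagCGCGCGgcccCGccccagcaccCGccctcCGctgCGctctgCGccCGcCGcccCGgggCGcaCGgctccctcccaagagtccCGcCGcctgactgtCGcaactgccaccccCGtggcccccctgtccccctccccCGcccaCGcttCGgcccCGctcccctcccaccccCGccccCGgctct
Sfrp2, chr3:83766071-83766320, plus strand: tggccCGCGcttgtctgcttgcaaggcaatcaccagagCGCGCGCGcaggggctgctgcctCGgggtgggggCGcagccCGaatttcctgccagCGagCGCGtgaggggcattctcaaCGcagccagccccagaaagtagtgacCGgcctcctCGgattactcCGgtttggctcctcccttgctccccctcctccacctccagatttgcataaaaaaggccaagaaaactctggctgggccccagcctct
The Wnt6 stretch was 79.6% G and C with 28 CG dinucleotides, and the Sfrp2 stretch 63.6% with 16, against medians of 52.4% and 6 over the 32851 promoters of the same length in the table. The table held promoters for 6 of the 10 genes, namely Wnt6, Sfrp2, Fzd1, Axin2, Wnt10b and Tcf7l2, the last with 2 starts. A high content was not particular to the pair shown, as the median over these 7 stretches was 66.8% G and C. Axin2 had 24 CG dinucleotides, Wnt10b 14, Fzd1 12, and the Tcf7l2 stretches 30 and 7. CTTTGAT, the core bound by TCF/LEF factors, searched on both strands, was in 0 of these 7 stretches. It was in 3.21% of all promoters in the table and in 4 of 83 from other Wnt pathway genes (Sp5, Wnt5b, Wnt11 and Tnfrsf19).

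The targeted gene was the low one on both siRNA arrays. Kdm1a stood at 19.5% of control with aof2 siRNA, and Rfk at 27.0% of control with rfk siRNA. No gene here checks the label of the tranylcypromine array. The 8 fibroblast and preadipocyte markers, among them Pdgfra, Thy1 and Dlk1, and the 4 early adipogenic factors, among them Cebpb and Pparg, all had mean signals above the array median. Of 6 mature fat cell markers on the array, Fabp4, Lpl and Retn did so, while Adipoq, the adiponectin gene, stayed at 4.32 to 22.0. The summed signal of the 6 was 7862 in control cells, 5325 with aof2 siRNA, 6188 with rfk siRNA and 4971 with tranylcypromine. Lpl and Fabp4 made up most of it. Fabp4, a fatty acid carrier gene, was lower in every treated culture, at 0.53, 0.32 and 0.44 times control. Retn, the resistin gene, differed by -0.31, -0.39 and -1.10 on the log2 scale, and Pparg, the main transcription factor of fat cell formation, by -0.12, -0.77 and -0.44. The listed markers did not all fall. Lpl differed by -0.43, 0.012 and -0.47, Cebpa by 0.56, 0.025 and 0.28, and Cebpd by 0.33, 0.27 and -0.31. Of the 4 early factors, 3 lay above control with aof2 siRNA, 3 with rfk siRNA and 1 with tranylcypromine. The part of these differentiation markers in the values of the Wnt pathway genes was not tested. Of 21 markers of leukocytes, endothelium, epithelium and skeletal muscle, 16 had a mean log2 signal under that median. Among these, Ptprc, Pecam1, Krt14 and Myh3 did not exceed 31.3 on any array. Those above the median were Epcam (202 to 285), Csf1r (101 to 119), Kdr, Des and Ckm. Median signals of the arrays lay between 53.3 and 56.2.

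Low signals on these arrays scatter widely, and this decides how each gene can be read. A gene is represented by its brightest probe set, and it is called dim where its mean log2 signal over the 4 arrays is under the array median, that is, the median over all probe sets, which corresponds to a signal of 50.9. It is called bright at or above the 75th percentile, a signal of 414. Of the 10 genes, Fzd1, Tcf7l2 and Wnt5a were bright, Sfrp2, Wnt6, Wnt10a and Sfrp4 lay between these limits, and Wnt10b, Sfrp1 and Axin2 were dim. In the aof2 siRNA comparison 44.4% of dim genes differed at least 2-fold in one direction or the other, against 4.78% of genes between the limits and 0.655% of bright genes. For rfk siRNA these shares were 44.8%, 3.75% and 0.582%, and for tranylcypromine 46.6%, 6.51% and 1.28%.

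**Figure D1:**
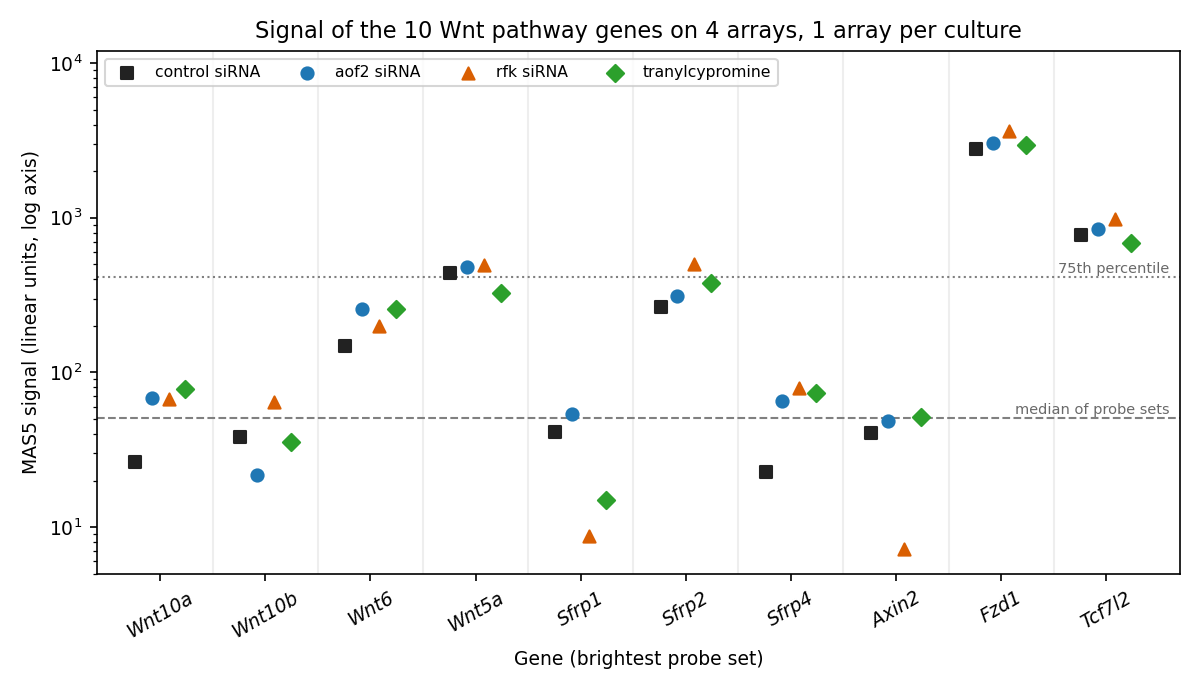
MAS5 signal (linear units on a log axis) of the brightest probe set of each of the 10 genes, 1 point per array, with the median and the 75th percentile of all probe sets as horizontal lines. Control siRNA is the lowest array for Wnt10a (26.4), Wnt6 (149), Sfrp2 (266), Sfrp4 (22.6) and Fzd1 (2788), and tranylcypromine is the lowest for Wnt5a (328) and Tcf7l2 (683).

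Among the ligands, Wnt6 was above control in each treated culture by 1.34- to 1.73-fold, Wnt10a went from a dim control signal to about the array median, and Wnt5a was lower with tranylcypromine than on the other 3 arrays. Wnt10b, the best known Wnt inhibitor of adipogenesis, was dim. No ligand gene among the 4 was at least 2-fold below control on its brightest probe set in any comparison. Wnt10a, at 2.56- to 2.96-fold, was the ligand gene at least 2-fold above it.

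Wnt10a had signals of 26.4 in control cells, 68.8 with aof2 siRNA, 67.4 with rfk siRNA and 78.1 with tranylcypromine. Control was the lowest array, and the 3 treated arrays lay within 0.21 of each other on the log2 scale. The log2 differences from control were 1.38, 1.35 and 1.57, and they share the control array, so they are not 3 separate observations of a rise. Wnt10a has 1 probe set, and its mean signal passed the array median only through the 3 treated arrays. With the other 3 arrays averaged in place of control, the differences were 0.41, 0.37 and 0.65.

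Wnt6 is the next protein-coding gene to Wnt10a in the RefSeq table for GRCm38.p6. Its brighter probe set gave 149, 257, 200 and 259 in control, aof2 siRNA, rfk siRNA and tranylcypromine cells. Control was again the lowest array, with aof2 siRNA and tranylcypromine side by side at the top. These are log2 differences of 0.79, 0.42 and 0.79. The second probe set, whose probes can also match other transcripts (suffix _x_at), gave 67.3, 104, 157 and 94.8. Its differences were 0.63, 1.22 and 0.49, so control was the lowest array on each probe set, but the order of the treated arrays was not shared. Set against the other 3 arrays averaged, the rfk siRNA value of the brighter probe set was -0.11.

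Wnt5a was read by 4 probe sets, and the tranylcypromine array was the lowest on each. The brightest gave 439 in control cells, 480 with aof2 siRNA, 494 with rfk siRNA and 328 with tranylcypromine. The second gave 234, 238, 248 and 131 in the same order. On both, the control and siRNA arrays lay close together and the tranylcypromine array stood apart below them. The log2 differences from control with tranylcypromine were -0.42 and -0.84, and -0.21 and -0.37 on the dim pair. The central 90% of bright genes in this comparison ran from -0.46 to 0.53 and that of genes between the limits from -0.78 to 0.94, so the brightest probe set lay inside the spread of genes of like signal and the second just outside it. Set against the other 3 arrays averaged, the brightest probe set stood at -0.52 with tranylcypromine. With aof2 siRNA and rfk siRNA its differences from control were 0.13 and 0.17.

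Wnt10b had signals of 38.5, 21.8, 64.6 and 35.4 in control, aof2 siRNA, rfk siRNA and tranylcypromine cells, from a single probe set. The rfk siRNA array was the highest and the aof2 siRNA array the lowest. Differences of -0.82, 0.75 and -0.12 lie within the central 90% of dim genes, which ran from -2.63 to 2.89, -2.74 to 2.78 and -2.65 to 2.96. Its neighbour in the gene table, Wnt1, was dimmer still, with signals of 3.05 to 11.0.

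Among the secreted antagonists, Sfrp2 was highest with rfk siRNA, Sfrp4 went from a dim control signal to about the array median in each treated culture, and the probe sets of Sfrp1 contradicted each other at dim signals. Sfrp2 had signals of 266 in control cells, 313 with aof2 siRNA, 504 with rfk siRNA and 377 with tranylcypromine. The rfk siRNA array stood at 1.89 times control, with control the lowest and the other two between. On the log2 scale the differences were 0.24, 0.92 and 0.50. The central 90% of genes between the limits ran from -0.70 to 0.71 for rfk siRNA, and Sfrp2 lay above it, while for aof2 siRNA (-0.62 to 0.86) and tranylcypromine (-0.78 to 0.94) it lay inside. Without the control array, rfk siRNA was higher than aof2 siRNA by 0.68, and tranylcypromine was below rfk siRNA by a log2 difference of -0.42. Set against the other 3 arrays averaged, Sfrp2 stood at -0.24 with aof2 siRNA, 0.67 with rfk siRNA and 0.12 with tranylcypromine.

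Sfrp4 had signals of 22.6, 65.3, 79.3 and 74.1 in control, aof2 siRNA, rfk siRNA and tranylcypromine cells. Control was the lowest array and the treated arrays lay within 0.28 of each other on the log2 scale. The signals were 2.89-, 3.51- and 3.28-fold control, which are log2 differences of 1.53, 1.81 and 1.71. Like Wnt10a, the gene has 1 probe set, and its mean passed the array median through the treated arrays alone. Set against the other 3 arrays averaged, the differences were 0.36, 0.73 and 0.60.

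The pattern of Wnt10a and Sfrp4, under 50.9 in control cells and at or above it on the 3 other arrays, was found in 112 of 18194 genes. It was set from the values of Wnt10a and Sfrp4 themselves, so this count is only a description of these arrays. Among dim genes 9.95% were at least 2-fold above control in all 3 comparisons, against 0.664% of genes between the limits and 0.116% of bright genes. Of the 21 markers of other cell types, Ptprc, Pecam1, Krt14 and Myh3 were at least 2-fold above control in all 3 comparisons. Above control by any amount in all 3 were 8 of the 21, beside 28.1% of dim genes, and 1 was below in all 3, beside 20.5% of dim genes. The sets are not fully alike, as 16 of the 21 were dim, and the 8 include Kdr and Epcam, which were not. The leukocyte gene Ptprc had signals of 3.44, 22.4, 22.1 and 26.2. The endothelial receptor gene Kdr, at 29.0, 57.7, 69.3 and 70.5, also had control as its lowest array. Other markers of the same cell types went the other way, among them the leukocyte gene Lyz2, at -0.24, -1.07 and -0.95 on the log2 scale, and the endothelial gene Cdh5, at -0.75, -0.59 and 0.26. The part of a low control array in the Wnt10a and Sfrp4 values was not tested.

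Sfrp1 has 5 probe sets, all dim. The brightest, an _x_at set, gave 41.1 in control cells, 53.6 with aof2 siRNA, 8.71 with rfk siRNA and 14.9 with tranylcypromine. It put rfk siRNA and tranylcypromine far below control, with log2 differences of -2.24 and -1.46. The next 3 probe sets put every treated array above control, by 1.67 to 2.76 with aof2 siRNA, 1.84 to 3.23 with rfk siRNA and 2.40 to 3.26 with tranylcypromine, from control signals of 3.45 to 4.62. The last gave -0.10, 0.38 and -3.18. No direction can be given for Sfrp1.

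**Figure D2:**
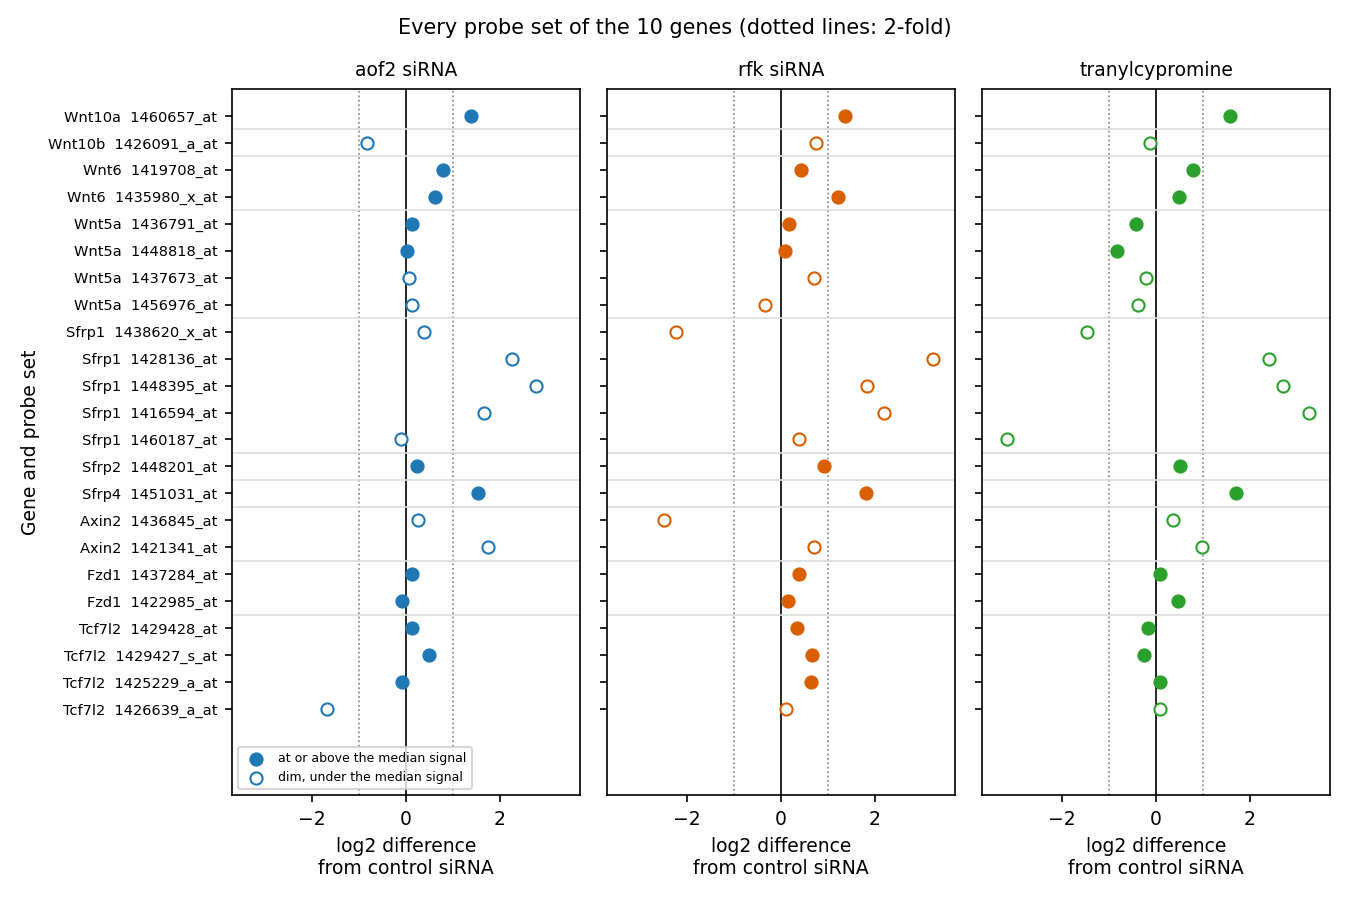
Log2 difference from control siRNA of each of the 23 probe sets, by comparison, with filled points for the 12 at or above the array median in mean log2 signal and open points for the 11 dim ones, and dotted lines at 2-fold. The 12 filled points belong to 7 genes, and 12 lie above 0 with rfk siRNA, 10 with aof2 siRNA and 8 with tranylcypromine, beside 49.2%, 49.0% and 46.8% of all named probe sets past the median, Wnt10a and Sfrp4 being filled through the treated arrays alone, while the open points of Sfrp1 and Axin2 fall on opposite sides of 0 with rfk siRNA.

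On the receiving side, Fzd1 and Tcf7l2 were bright and differed little from control, and Axin2 was dim. Fzd1, a Frizzled receptor gene, had signals of 2788, 3048, 3623 and 2944 in control, aof2 siRNA, rfk siRNA and tranylcypromine cells. The rfk siRNA array was the highest, at 1.30 times control, and the others lay close together. The log2 difference with rfk siRNA was 0.38, just inside the central 90% of bright genes (-0.39 to 0.39). With aof2 siRNA and tranylcypromine it was 0.13 and 0.078. The dimmer probe set of Fzd1 gave 68.0, 64.3, 75.2 and 94.0, with tranylcypromine the highest array instead.

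Tcf7l2 encodes TCF4, a DNA-binding partner of beta-catenin. Its brightest probe set gave 772 in control cells, 851 with aof2 siRNA, 984 with rfk siRNA and 683 with tranylcypromine. The order put rfk siRNA at the top and tranylcypromine at the bottom, a gap of 0.53 on the log2 scale. The second probe set, at 254, 360, 402 and 214, had the same order of arrays. The third, at 66.7, 62.9, 104 and 70.5, shared the highest array and not the lowest. With rfk siRNA the 3 probe sets past the median lay above control by 0.35, 0.66 and 0.64, and with tranylcypromine they stood at -0.18, -0.25 and 0.080. With aof2 siRNA they stood at 0.14, 0.50 and -0.085. A further probe set was dim, at 11.6, 3.62, 12.6 and 12.4, with -1.67 for aof2 siRNA.

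Axin2, the feedback gene often read as a gauge of beta-catenin activity, gave 40.3, 48.6, 7.19 and 51.6 on its brighter probe set, in control, aof2 siRNA, rfk siRNA and tranylcypromine cells. The rfk siRNA array was far below the rest, with a log2 difference of -2.49. The other probe set, at 4.71, 15.8, 7.74 and 9.28, put rfk siRNA above control by 0.72. Both probe sets lay above control with aof2 siRNA (0.27 and 1.75) and with tranylcypromine (0.36 and 0.98). Both were dim, a signal at which these arrays give no direction for Axin2.

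Counted together on their brightest probe sets, 2 of the 10 genes were at least 2-fold above control with aof2 siRNA (11.1% of all 18194 named genes were), 2 with rfk siRNA (9.94%) and 2 with tranylcypromine (12.3%). These were Wnt10a and Sfrp4 each time. At least 2-fold below control were 0 with aof2 siRNA (8.26%), 2 with rfk siRNA, namely Sfrp1 and Axin2 (9.33%), and 1 with tranylcypromine, namely Sfrp1 (8.56%). The median log2 difference of the 10 was 0.25 with aof2 siRNA, 0.40 with rfk siRNA and 0.22 with tranylcypromine, beside 0.014, -0.0021 and 0.013 over all named genes. Above control by any amount were 9, 8 and 6 of the 10, beside 51.6%, 49.7% and 51.2% of all named genes. The 3 comparisons share the control array, and the counts are a description of these arrays.

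**Figure D3:**
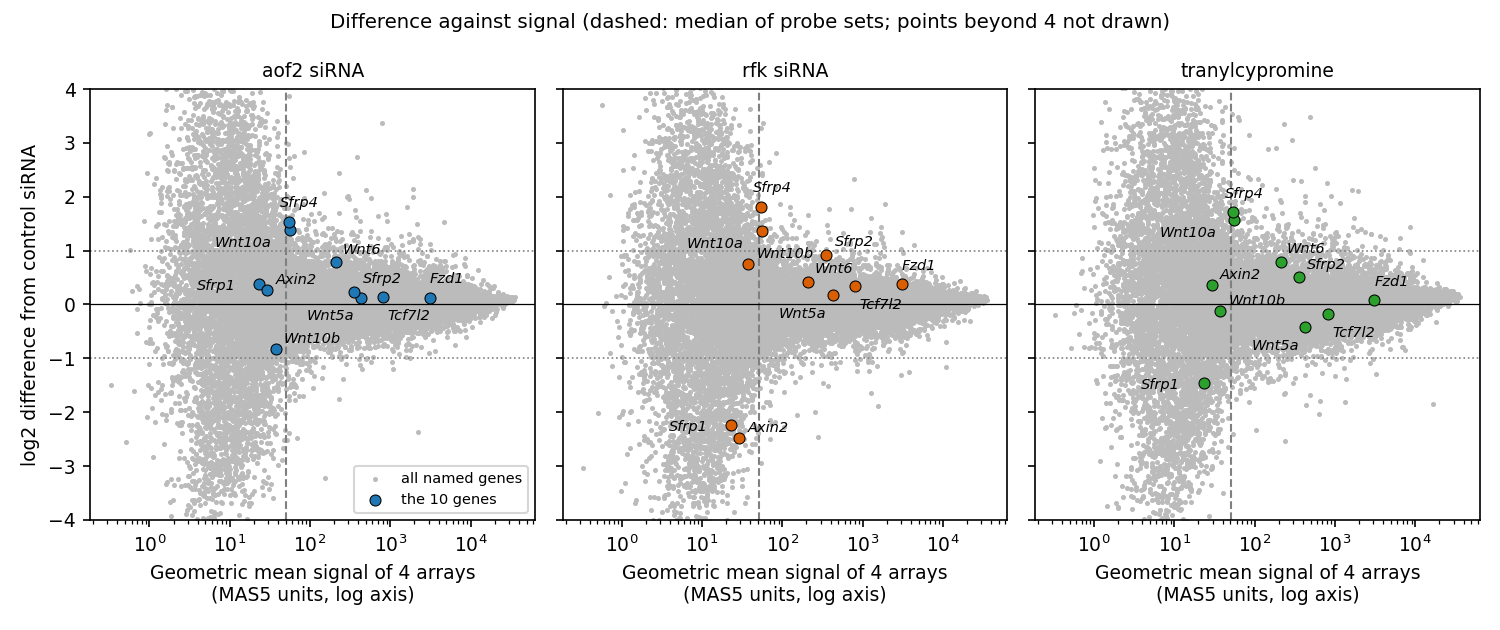
Log2 difference from control siRNA against the geometric mean signal of the 4 arrays (MAS5 units, log axis) for all named genes in grey and the 10 genes in colour, 1 panel per comparison, with the median of probe sets dashed and 2-fold dotted. Wnt10a and Sfrp4 lie just right of the dashed line and above 2-fold in each panel, and Sfrp1 and Axin2 lie left of it, where grey points spread past 2-fold in both directions.

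Sfrp2, the gene with the widest range among those above the median on every array, was compared with all other genes past the filter by the Euclidean distance between log2 profiles centred on their own means over the 4 arrays. Closest of 10787 genes were Efna3, an ephrin gene, at a distance of 0.059, Prph, the peripherin gene, at 0.10, and Cxcl16, a chemokine gene, at 0.12. All 3 were far dimmer, with signals between 48.4 and 92.7, and a match over 4 arrays is easily had among so many genes. Of the other members past the filter, Fzd1 came closest, at rank 314.

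The rest of the pathway was taken from 7 lists of 94 other genes, of which 92 were on the array and 53 were past the filter. On their brightest probe sets, 0 of these 53 were at least 2-fold above control in any comparison. Of the 10788 genes past the filter, 1.61% were with aof2 siRNA, 0.927% with rfk siRNA and 2.23% with tranylcypromine. At least 2-fold below control were 0, 0 and 2 of the 53, beside 0.538%, 0.806% and 0.945%. Further probe sets of Wnt4 and Ccnd1 passed 2-fold above control, and a further Btrc probe set 2-fold below, as given later. The pair below control with tranylcypromine were Ror2, a receptor of Wnt5a, and Lef1, a partner of beta-catenin. Ror2 had signals of 57.7, 67.2, 88.3 and 27.1 in control, aof2 siRNA, rfk siRNA and tranylcypromine cells, a log2 difference of -1.09 with tranylcypromine. Its control signal was close to the filter signal of 50.9 and its tranylcypromine signal under it, on its only probe set past the filter. Lef1 had 115, 118, 136 and 54.8, a difference of -1.07. In both the arrays ran from tranylcypromine through control and aof2 siRNA to rfk siRNA, the order also seen in Wnt5a and Tcf7l2. Of the 60 members and listed genes past the filter, 12 had this order (Wnt5a, Tcf7l2, Fzd2, Fzd8, Lrp6, Ror1, Ror2, Csnk1e, Lef1, Tcf7l1, Apcdd1 and Bambi), or 20%, beside 4.49% of all genes past the filter. The order was picked out after the values were seen, ranks carry no size, and these genes share the same 4 arrays, so the share is a description. It was also read on brightest probe sets alone. Another probe set past the filter put tranylcypromine above control for Fzd2 (0.23), Apcdd1 (0.087), Tcf7l2 (0.080) and Tcf7l1 (0.025). For Csnk1e another lay below control with aof2 siRNA (-0.12). The order with tranylcypromine lowest was not the only one held more often here than among all genes: control lowest, then aof2 siRNA, tranylcypromine and rfk siRNA was the order of 8 of the 60 (Sfrp2, Sfrp4, Wnt7b, Fzd3, Fzd4, Ptk7, Csnk1d and Dact1), or 13.3%, beside 2.75% of all genes past the filter. The same limits hold for this order. Sfrp4 counts in it although its mean passed the filter through the treated arrays alone, and Wnt10a entered the 60 in the same way. Fzd3, Fzd4 and Csnk1d each have another probe set past the filter below control with aof2 siRNA (-0.38, -0.25 and -0.30).

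Of the 15 other ligand genes 3 were past the filter, and Wnt4 was the bright one. Wnt4 had signals of 3101 in control cells, 4998 with aof2 siRNA, 4030 with rfk siRNA and 5417 with tranylcypromine, the same order of arrays as on the brighter probe set of Wnt6. Its log2 differences were 0.69, 0.38 and 0.80, and a further probe set gave 1.13, 0.78 and 1.34. The first of these lie outside the central 90% of bright genes for aof2 siRNA (-0.39 to 0.47) and tranylcypromine, and inside it for rfk siRNA. Wnt7b, at 81.6 to 99.5, differed by 0.14, 0.29 and 0.21.

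Other secreted antagonists were mostly dim. Of 11 genes, Notum and Dkk3 were past the filter. Notum, which encodes an enzyme that removes the lipid from Wnt proteins, had signals of 134, 77.4, 80.6 and 170. The siRNA arrays were the low ones, with log2 differences of -0.79 and -0.73, and tranylcypromine stood at 0.34. Dkk3, at 142, 126, 103 and 122, differed by -0.17, -0.46 and -0.22, and its other probe set past the filter by 0.075, -0.059 and 0.31. Wls, which carries Wnt proteins to the cell surface, was bright at 4188 to 5401 and differed by 0.32, -0.048 and 0.044. Porcn, the enzyme that attaches the lipid, differed by 0.24, -0.033 and 0.28. The R-spondin gene Rspo2, whose mean was under the filter, went from 68.4 in control cells to 32.8 with aof2 siRNA, a difference of -1.06.

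On their brightest probe sets, all 14 other receptor and co-receptor genes past the filter lay above control with aof2 siRNA, beside 49.3% of genes past the filter, with a median of 0.17. With rfk siRNA 11 did, beside 48.5%, and with tranylcypromine 9, beside 48.0%, with medians of 0.17 and 0.14. With aof2 siRNA 11 of the 14 lay above control on every probe set past the filter, while Fzd3, Fzd4 and Ryk each had a probe set below it, at -0.38, -0.25 and -0.10. The count with aof2 siRNA is of signs alone, and the 14 ran from 0.0067 for Fzd7 to 0.81. In that comparison the probe sets past the filter of a gene with several lay a median of 0.31 apart, over 5228 genes. The median of the 14 is smaller than this gap. Lgr4, the R-spondin receptor gene, had signals of 4604, 6592, 4606 and 5075, so that aof2 siRNA was the high array by 0.52. Lrp5, a Wnt co-receptor gene named here after its values were seen, had 132, 231, 128 and 223. Its log2 differences of 0.81 with aof2 siRNA, -0.044 with rfk siRNA and 0.76 with tranylcypromine put the aof2 siRNA and tranylcypromine arrays together above the others. Ryk, a further Wnt receptor gene, differed by values between -0.26 and 0.044 on its brightest probe set.

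Of 12 destruction complex and transducer genes past the filter, 0 were at least 2-fold from control on their brightest probe sets, where the differences ran from -0.37 to 0.23 with aof2 siRNA, -0.44 to 0.38 with rfk siRNA and -0.31 to 0.46 with tranylcypromine. The probe sets past the filter fell on both sides of control for 7, 5 and 5 of the 12. Btrc, which encodes a ubiquitin ligase subunit that recognises beta-catenin and is named after its values were seen, differed by -0.37, -0.44 and -0.18, and its other probe set past the filter stood at -1.08 with aof2 siRNA. Ctnnb1, the beta-catenin gene, had signals of 12743, 13933, 14654 and 15398, with differences of 0.13, 0.20 and 0.27. Csnk1a1, a casein kinase gene of the destruction complex, differed by 0.23, 0.16 and -0.023. The medians of the 12 were 0.092, 0.17 and 0.023. Among nuclear partners, Tcf7l1 had 3261, 4193, 4359 and 2776, again with rfk siRNA highest and tranylcypromine lowest, and Ctnnbip1, an inhibitor of beta-catenin, differed by -0.31, -0.16 and -0.19. Tle1, a corepressor gene named after its values were seen, was above control by 0.93, 0.88 and 0.91, but its other probe set past the filter gave 0.30, 0.024 and 0.38.

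Among 9 target and feedback genes past the filter, 7 lay above control with aof2 siRNA, 5 with rfk siRNA and 6 with tranylcypromine, beside 49.3%, 48.5% and 48.0% of all genes past the filter, and the medians were 0.048, 0.32 and 0.015. Ccnd1, the cyclin D1 gene, had signals of 4830, 6378, 6024 and 7788 and was above control by 0.40, 0.32 and 0.69, with its 3 probe sets between 0.69 and 1.03 for tranylcypromine. Myc differed by -0.018, 0.33 and 0.10. Of these 9, Ccn4, Apcdd1 and Bambi were the furthest below control with tranylcypromine and are named after their values were seen. Ccn4, a matricellular gene, had 369, 374, 339 and 198, a difference of -0.90, with -0.58 on its other probe set. Apcdd1, a Wnt inhibitor gene, stood at -0.87, although its 4 probe sets past the filter ranged up to 0.087. Bambi, a TGF-beta pseudoreceptor gene, stood at -0.72.

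**Figure D4:**
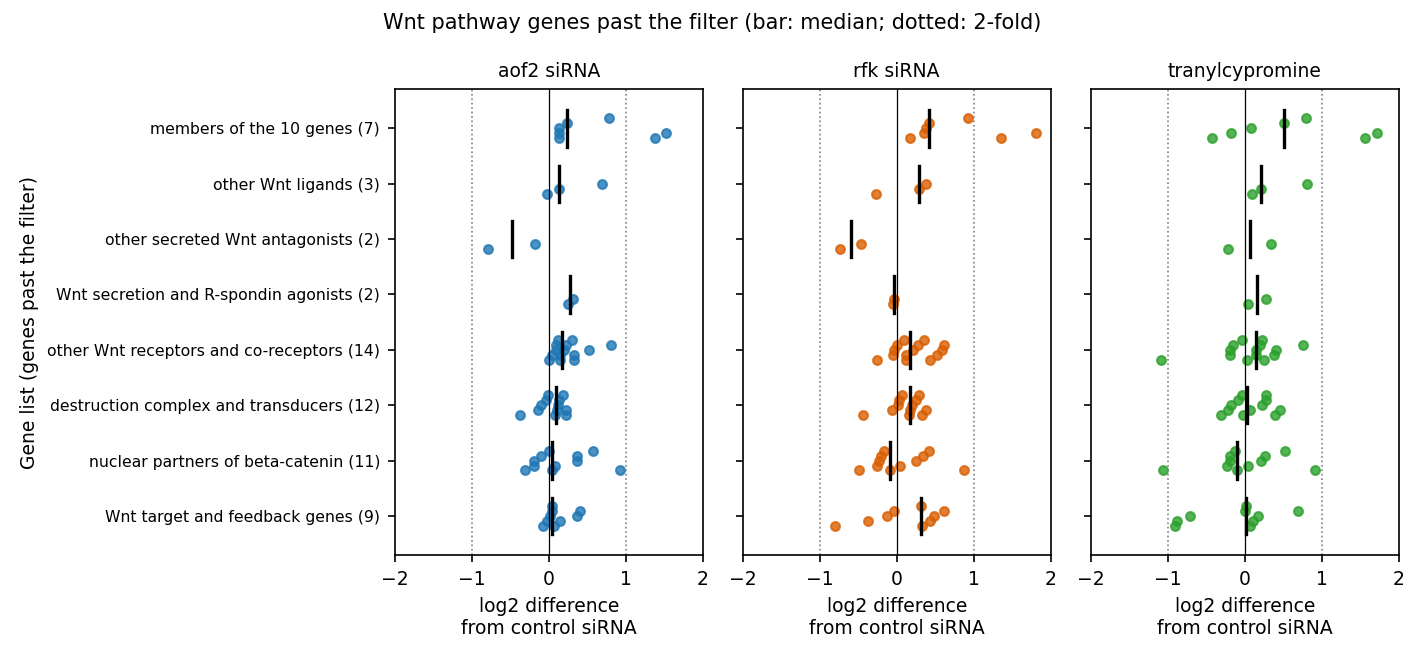
Log2 difference from control siRNA of each Wnt pathway gene past the filter, 1 point per gene, by list (number of genes in brackets) and comparison, with black bars at the median and dotted lines at 2-fold. On these brightest probe sets all 14 receptor genes lie above 0 with aof2 siRNA, some barely (0.0067 to 0.81), although Fzd3, Fzd4 and Ryk have other probe sets below it. Ror2 (-1.09) and Lef1 (-1.07) are the points left of 2-fold with tranylcypromine.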

How the data were processed

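RNA from 4 cultures was measured on 1 Affymetrix array each, from 250 ng of total RNA. The deposited values are MAS5 intensities on a linear scale, per the submitters' processing notes; its version and scaling target are not stated in the labels, and no detection calls were used. Values without the lowest and highest 2% averaged 500.003 on each array. Signals were taken to log2 without an offset. Names came from the platform annotation (34958 of 45101 probe sets with 1 symbol, 932 with several, 9211 unnamed here), of which 34754 matched the RefSeq gene table. Each gene was read on its probe set of highest mean log2 signal, and the filter kept 10788 genes. The 2-fold call was checked on simulated data for genes past the filter only, so the check does not cover dim genes. Named genes were the 10 members, listed genes at least 2-fold from control whose brighter array reached the filter, otherwise the 2 brightest of a list, the 3 genes nearest in profile and Wnt neighbours; others are said to be named after their values were seen. The members and lists were chosen with earlier results of these data known. The 9 alternatives were other scalings, an offset, other probe set rules, another reference, 2 filters and a lower fold threshold. Python 3.11.15, NumPy 2.4.6, pandas 2.3.3 and matplotlib 3.10.9 were used.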

Additional observations from a re-analysis of the deposited data

How the results depend on the processing

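Centring on the median and quantile normalization kept the direction of all 10 genes in each comparison and the same counts past 2-fold. Averaging all probe sets of a gene gave 4 genes at least 2-fold above control with aof2 siRNA, 0 below with rfk siRNA and 0 below with tranylcypromine, and it moved the median to 0.47 with aof2 siRNA, to 0.78 with rfk siRNA and to 0.57 with tranylcypromine. It also turned Sfrp1 to 1.08 with rfk siRNA and 0.75 with tranylcypromine, and Tcf7l2 to -0.28 with aof2 siRNA. Without _s_at, _x_at and _a_at probe sets, which leaves no value for Wnt10b, Sfrp1 stood at 3.23 and 2.40, with 1 gene below control with rfk siRNA and 0 with tranylcypromine, and the tranylcypromine median was 0.50. An offset of 16 left 1 above with rfk siRNA, since Wnt10a dropped under 2-fold, and 0 below with tranylcypromine. Against the mean of the 3 other arrays 1 gene was above in each comparison, namely Sfrp1 with aof2 siRNA, Wnt10b with rfk siRNA and Axin2 with tranylcypromine, all dim, with 1 below with aof2 siRNA and 0 with tranylcypromine, and the tranylcypromine median was 0.013. The filter at the median left 0 below with rfk siRNA and 0 with tranylcypromine, with a tranylcypromine median of 0.50. At the 75th percentile, where 3 genes remain, 0 were above or below in any comparison, and the median was 0.13 with aof2 siRNA and -0.18 with tranylcypromine. With a 1.5-fold threshold 1 gene was below with aof2 siRNA and 4 were above with rfk siRNA. Results for Wnt10b, Sfrp1 and Axin2 are limited by dim signal, and those of Wnt10a and Sfrp4 by a dim control array.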
